A study of Rattus norvegicus with 8 samples.

Results

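The 10 genes described here belong to the cell cycle control system and were followed in the injured rat sciatic nerve: the cyclins Ccnd1, Ccnd2, Ccnd3, Ccne1, Ccna2 and Ccnb1 and the inhibitors of cyclin-dependent kinases (CDKs) Cdkn1a, Cdkn1b, Cdkn1c and Cdkn2c. They were taken by name from the deposited count table, in which all 10 were found among 22601 gene names, and all 10 passed the filter on low counts that left 15763 genes to test. The nerves were sampled on day 15 after a chronic constriction injury (CCI, loose ligatures tied around the nerve, used to model neuropathic pain) or after sham surgery, with 4 polyA libraries in each group. Both groups were operated rats, and the sources used here do not give their strain, age or sex or say that each library is a separate animal. P-values therefore measure only library-to-library spread, which may be partly technical.

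Cyclins are the regulatory subunits that switch on the CDKs. D-type cyclins pair with CDK4 and CDK6 to start the phosphorylation of the retinoblastoma protein, cyclin E with CDK2 drives entry into DNA replication, cyclin A accompanies replication and the following gap phase, and cyclin B with CDK1 drives mitosis. The Cip/Kip inhibitors, encoded by Cdkn1a (p21), Cdkn1b (p27) and Cdkn1c (p57), bind cyclin-CDK complexes of several kinds, whereas the INK4 inhibitor encoded by Cdkn2c (p18) binds CDK4 and CDK6 themselves. In the healthy adult nerve Schwann cells, the glia that wrap axons, hardly divide, and after nerve injury Schwann cells, fibroblasts, endothelial cells and macrophages can re-enter the cycle.

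The libraries held between 42541217 and 54559292 counts. Across genes, which are not independent replicates, r was 0.965 to 0.983 for libraries of 1 group and 0.850 to 0.881 between groups. Among the sham libraries, sham 1 and sham 4 differed least (chi-square per degree of freedom 28.7), as did sham 2 and sham 3 (31.0), against 52.4 to 78.3 for the other sham pairs. Tissue markers were present in every library: the summed level of 8 genes of the myelinating Schwann cell was 89020 to 105200 CPM (counts after scaling every library to one total) in sham and 6663 to 10240 CPM in CCI libraries, with 8 of 8 lower in CCI. Of 8 macrophage markers 7 were higher, their summed level going from 501 to 749 CPM in sham up to 2001 to 2194 CPM in CCI. Of 6 endothelial markers 5 were higher and 1 lower (680 to 717 CPM in sham, 1083 to 1230 CPM in CCI), and the 5 fibroblast markers summed to 39800 to 55750 CPM in sham and 39990 to 54690 CPM in CCI, with 2 higher and 1 lower. Neutrophil markers were higher in 5 of 6 cases (1.177 to 3.57 CPM in sham, 43.9 to 125 CPM in CCI) and lymphocyte markers in 5 of 8 tested (64.8 to 99.0 and 247 to 339 CPM). All 3 tested perineurial markers were lower (3922 to 5442 CPM in sham, 578 to 850 CPM in CCI), as were 2 of 3 of the Schwann cell lineage (3184 to 3918 and 679 to 1107 CPM). Mast cell markers were lower in 3 of 5 cases and higher in 1 (127 to 156 and 82.9 to 111 CPM). The summed ranges of smooth muscle and of adipocyte markers overlapped between groups. Those of 9 skeletal muscle markers did too (14.2 to 638 CPM in sham, 12.2 to 2575 CPM in CCI), with sham 2 and CCI 2 the highest of their groups. None of the markers listed was at 0 in all libraries. Over all tested genes, 36.2% were higher and 32.2% lower in CCI by the test described below. A count of called markers alone therefore says little, most of all in the short lists. In whole nerve, fewer cells of a type and less RNA per cell cannot be told apart, and the part that this change in markers plays in the results that follow was not tested.

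Of the 10 genes, 9 passed the test, 6 of them higher and 3 lower in CCI (edgeR's quasi-likelihood test, Benjamini-Hochberg adjusted p under 0.05 over all 15763 genes). Over all genes tested, 68.4% passed, 36.2% higher and 32.2% lower, so a call alone sets a gene little apart in these nerves. The higher genes were Ccnd1, Ccnd3, Ccne1, Ccna2, Ccnb1 and Cdkn2c, the lower ones Ccnd2, Cdkn1b and Cdkn1c, and Cdkn1a did not pass. In 9 of the 10, all with the exception of Cdkn1a, no CCI library lay within the range of the sham libraries, against 64.8% of all tested genes. The median log2 fold change was 3.00 over the 6 cyclins and -0.10 over the 4 inhibitors, beside 0.05 over all tested genes. Called changes of at least 2-fold were found in 5 of the 10, compared with 30.3% of all tested genes.

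**Figure D1:**
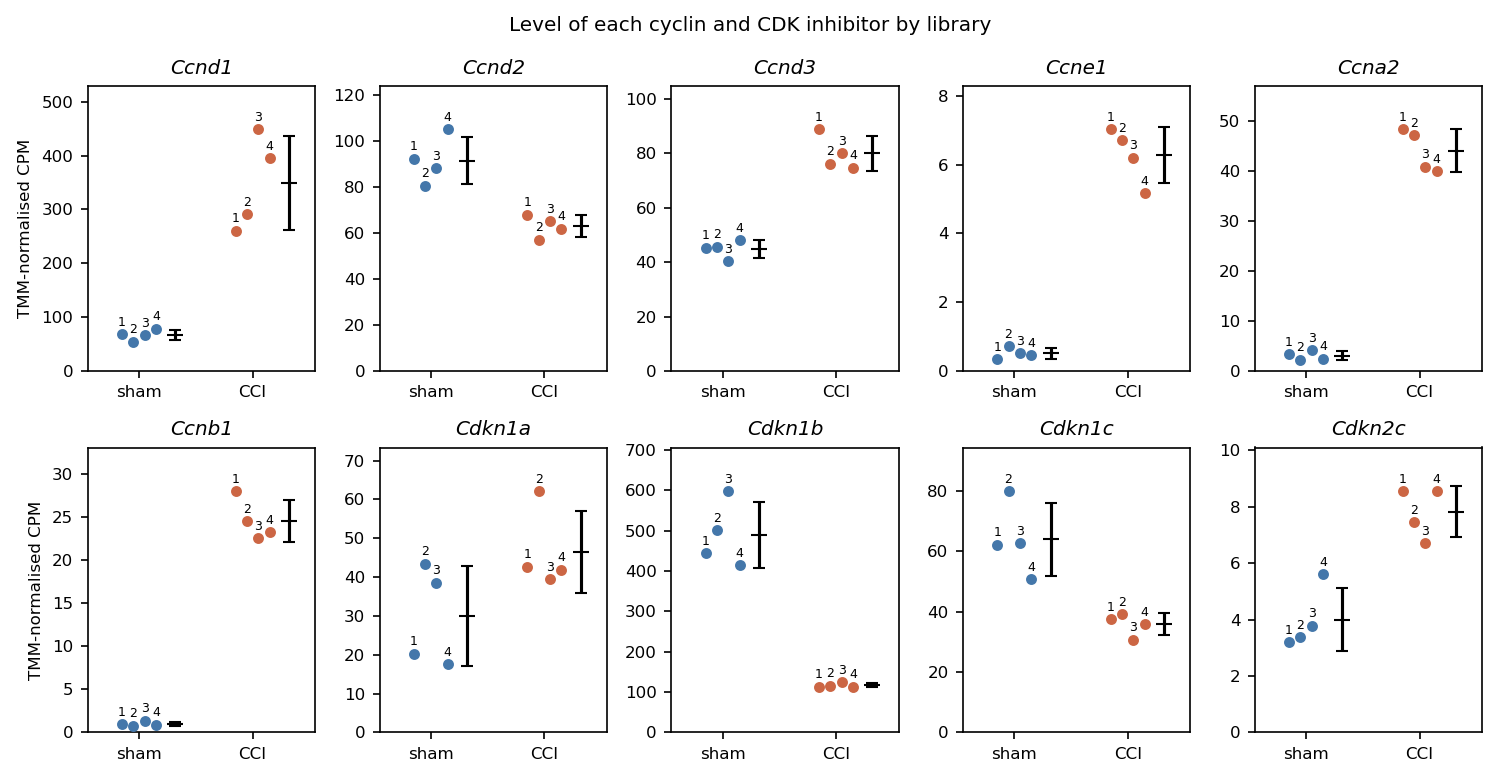
Level of each gene in every library, in CPM after TMM scaling (vertical axis, from 0), for sham (blue) and CCI (orange) with library numbers above the points and mean ± SD beside them. The groups overlap in Cdkn1a alone, where sham 2 and sham 3 (43.4 and 38.5 CPM) lie near CCI 1, 3 and 4.

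The D-type cyclins, which link growth signals to the cycle, did not move together. Ccnd1 was 5.22-fold and Ccnd3 1.78-fold higher in CCI nerve, and Ccnd2 was 1.45-fold lower. Ccnd1 stood at 68.8, 54.2, 65.95 and 78.6 CPM in sham 1 to 4 and at 260.5, 292, 449 and 395 CPM in CCI 1 to 4. Each CCI library was above every sham library, and CCI 3 and 4 lay above CCI 1 and 2. The log2 fold change was 2.38 (SE 0.19; edgeR adjusted p = 3.74e-06), and 6.25% of tested genes had one at least as high.

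Ccnd2, the D-type cyclin with the highest FPKM (a level per gene length, used below) in sham nerve, was at 92.4, 80.7, 88.4 and 105 CPM in sham 1 to 4 and at 68.1, 57.2, 65.4 and 62.0 CPM in CCI 1 to 4. The groups did not overlap, although the distance between the lowest sham and the highest CCI library was small beside the shift in Ccnd1. Its log2 fold change was -0.54 (SE 0.09; edgeR adjusted p = 0.000249). With scaling by library totals only, which moved the median of all tested genes from 0.05 to 0.27, it was -0.31 (edgeR adjusted p = 0.00865). Ccnd3 was at 45.4, 45.7, 40.2 and 48.1 CPM in sham 1 to 4 and at 88.8, 76.2, 80.1 and 74.8 CPM in CCI 1 to 4. Both groups were tight, and the log2 fold change was 0.83 (SE 0.08; edgeR adjusted p = 3.73e-06). In the GRCr8 annotation 2 long noncoding RNA genes overlap Ccnd3, and the sources used here do not state the strand setting of the counting, so reads of these genes may be counted with it. No gene overlaps the other 9 there.

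Ratios within a library do not depend on how libraries are scaled to each other. They were formed from the deposited FPKM (counts divided by gene length and by the library's total). In all, 12 ratios were tested with a two-sided exact permutation test of 4 against 4 libraries, whose smallest possible p is 0.0286. After Benjamini-Hochberg adjustment over the 12, this exact permutation p became 0.0381. That adjusted value is so low only because most of the 12 ratios, several of which share genes, reached the smallest p. Ccnd1 stood to Ccnd2 at 0.235 to 0.261 in sham and at 1.33 to 2.40 in CCI libraries, a difference of 2.89 on the log2 scale (exact p = 0.0286, adjusted p = 0.0381). Ccnd1 also gained on Ccnd3, by 1.53, and Ccnd2 lost on Ccnd3, where the difference was -1.37 (exact p = 0.0286 and adjusted p = 0.0381 for each). The order of Ccnd1 and Ccnd2 was thus opposite in the groups. Summed over the D-type cyclins, FPKM went from 96.5 ± 10.04 in sham to 186 ± 25.8 in CCI (SD, n = 4). Ccnd1 made up 15.8% ± 1.02 of this sum in sham and 49.6% ± 6.96 in CCI, Ccnd2 62.1% ± 0.975 and 26.2% ± 3.16, and Ccnd3 22.2% ± 1.97 and 24.2% ± 3.84. Shares between genes rest on the lengths behind the deposited FPKM, which were 4050 bp for Ccnd1, 1414 bp for Ccnd2 and 1948 bp for Ccnd3, while the change of a ratio between groups does not. Sums of FPKM rest on library totals without TMM scaling, whose factors were 0.913 to 0.936 in sham and 1.06 to 1.10 in CCI libraries. Such sums therefore stand higher in CCI, relative to sham, than levels in CPM after TMM scaling would.

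**Figure D2:**
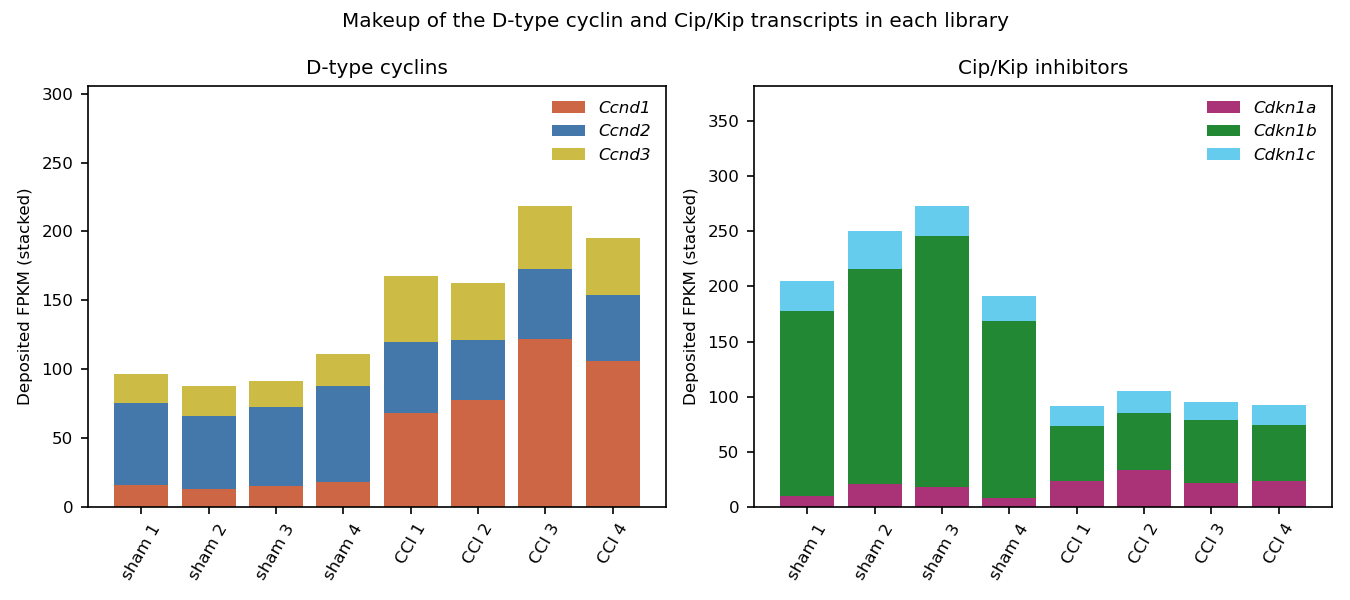
Deposited FPKM of the D-type cyclins (left) and of the Cip/Kip inhibitors (right), stacked by gene for each of the 8 libraries. Ccnd1 took 14.2% to 16.4% of the D-type sum in sham and 40.7% to 55.9% in CCI libraries, and Cdkn1b took 77.8% to 84.0% of the Cip/Kip sum in sham and 49.2% to 60.05% in CCI libraries.

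Cyclins of replication and mitosis rose from low levels in sham nerve. Ccne1 was 12.2-fold, Ccna2 14.5-fold and Ccnb1 24.8-fold higher in CCI nerve. Ccne1, the cyclin of entry into DNA replication, had 0.334, 0.730, 0.511 and 0.463 CPM in sham 1 to 4, which rest on 13 to 31 counts a library, and 7.03, 6.72, 6.21 and 5.18 CPM in CCI 1 to 4. All sham libraries were above the limit that a count of 0 allows (3 counts, or 0.0518 to 0.0771 CPM), and all lay far below CCI. Its log2 fold change was 3.61 (SE 0.25; edgeR adjusted p = 4.17e-07), and 2.75% of tested genes had one at least as high.

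Ccna2, the cyclin of replication and the gap phase after it, had 3.29, 2.28, 4.18 and 2.43 CPM in sham 1 to 4 and 48.3, 47.2, 40.9 and 40.0 CPM in CCI 1 to 4. Its groups lay far apart, the fitted log2 fold change of 3.86 ± 0.19 (SE) having an edgeR adjusted p of 6.46e-08. Ccnb1, the cyclin of mitosis, had 0.925, 0.800, 1.35 and 0.882 CPM in sham 1 to 4, from 34 to 58 counts a library, and 28.0, 24.5, 22.5 and 23.2 CPM in CCI 1 to 4. It had the highest fold change of the 10 genes, with a log2 value of 4.63 (SE 0.17; edgeR adjusted p = 7.34e-09) that 1.24% of tested genes reached. Relative to each other, Ccnb1 gained on Ccna2, the ratio going from between 0.258 and 0.334 in sham to between 0.477 and 0.533 in CCI libraries (log2 difference 0.76; exact permutation p = 0.0286, adjusted p = 0.0381). The ratio of Ccna2 to Ccne1 was 2.17 to 6.84 in sham and 4.57 to 5.36 in CCI libraries, and these ranges overlapped (log2 difference 0.22; exact permutation p = 0.657, adjusted p = 0.657).

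Mki67, the proliferation marker Ki-67, served as a yardstick for the cyclins. It averaged 13.9 ± 3.37 CPM in sham nerve and 217 ± 15.7 CPM in CCI nerve (SD, n = 4), a log2 fold change of 3.96 with an SE of 0.18. Relative to Mki67, Ccna2 was at 0.762 to 1.25 in sham and 0.854 to 1.02 in CCI libraries, on FPKM, with a log2 difference of -0.10 (exact permutation p = 0.600, adjusted p = 0.657). Ccne1 likewise gave overlapping ranges, 0.144 to 0.560 in sham and 0.182 to 0.211 in CCI libraries (log2 difference -0.33; exact permutation p = 0.629, adjusted p = 0.657). Ccnb1 per Mki67 was higher in every CCI library, at 0.431 to 0.535 against 0.255 to 0.392 in sham (log2 difference 0.66; exact permutation p = 0.0286, adjusted p = 0.0381). This call was lost when any 1 CCI library was left out (exact permutation p = 0.0571, adjusted p = 0.0762 in each case, on the absolute difference). The log2 difference stayed at 0.62 to 0.72 there and the ranges stayed apart, but only 35 assignments of libraries remain. With 4 libraries a group, the spread of the sham ratios leaves room for differences in Ccna2 and Ccne1 that these tests would not detect.

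**Figure D3:**
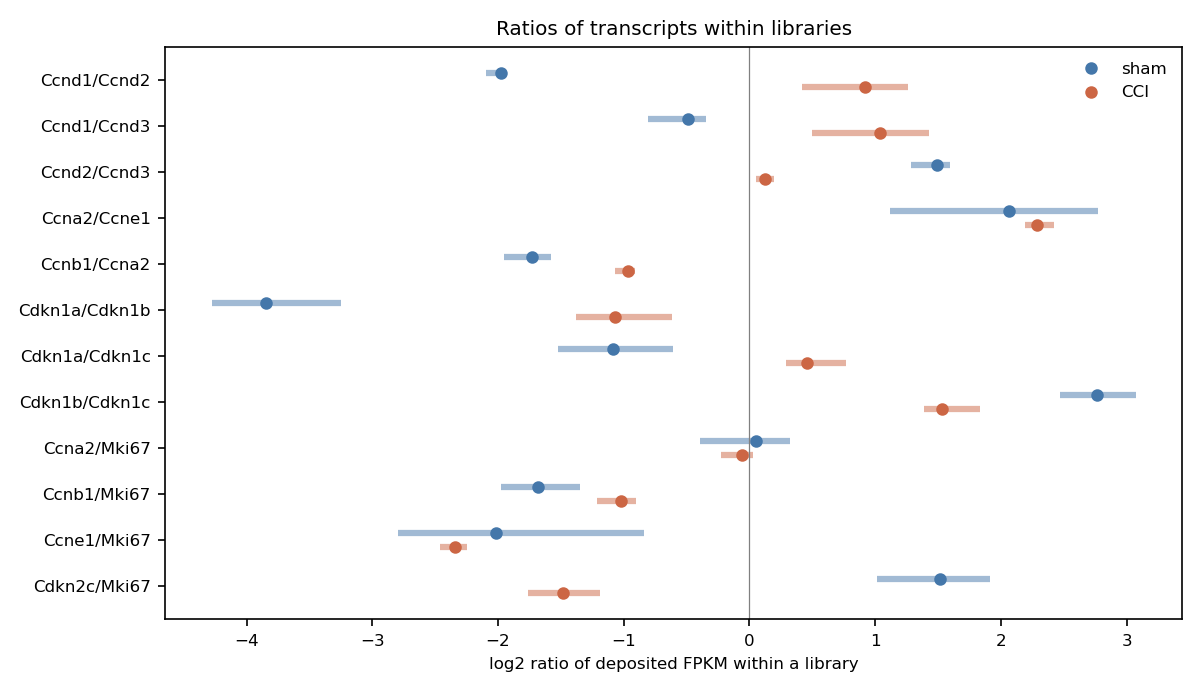
Log2 ratio of deposited FPKM between the genes named at the left, within each library (horizontal axis), with the mean of 4 libraries as a point and their lowest to highest value as a bar, for sham (blue) and CCI (orange). The ranges are apart for 9 of the 12 ratios and overlap for Ccna2/Ccne1, Ccna2/Mki67 and Ccne1/Mki67.

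Promoter windows are shown for Ccnb1 and for Cdk1, its kinase partner, which rose together, and for Cdkn1b, which fell. Each runs from 250 bases before to 50 bases after the annotated start (RefSeq, GRCr8), and the table held windows for 6 of the 10 genes: Ccnd3, Ccne1, Ccnb1, Cdkn1a, Cdkn1b and Cdkn2c. Capitals mark matches on either strand to CCAAT (the box bound by NF-Y), TTTGAA (the cell cycle homology region, CHR), TTTGGCGC or TTTCCCGC (forms of the E2F site) and GGGCGG (the GC box), all read 5′ to 3′ on the strand of the gene. The Ccnb1 window is chr2:33655176-33655475 (- strand), that of Cdk1 chr20:19265043-19265342 (+ strand) and that of Cdkn1b chr4:169491254-169491553 (+ strand).
Ccnb1: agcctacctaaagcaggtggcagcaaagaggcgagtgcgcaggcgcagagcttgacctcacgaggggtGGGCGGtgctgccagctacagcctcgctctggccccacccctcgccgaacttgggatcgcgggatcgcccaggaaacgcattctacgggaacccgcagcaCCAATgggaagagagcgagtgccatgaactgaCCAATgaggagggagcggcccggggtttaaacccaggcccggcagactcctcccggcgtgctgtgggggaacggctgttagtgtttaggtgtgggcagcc
Cdk1: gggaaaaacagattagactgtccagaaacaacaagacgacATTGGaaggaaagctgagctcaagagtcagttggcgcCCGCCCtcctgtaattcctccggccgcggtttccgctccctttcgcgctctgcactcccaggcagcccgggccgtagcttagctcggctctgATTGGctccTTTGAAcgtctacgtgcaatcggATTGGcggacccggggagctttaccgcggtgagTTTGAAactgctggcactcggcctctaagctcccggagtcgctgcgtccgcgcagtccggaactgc
Cdkn1b: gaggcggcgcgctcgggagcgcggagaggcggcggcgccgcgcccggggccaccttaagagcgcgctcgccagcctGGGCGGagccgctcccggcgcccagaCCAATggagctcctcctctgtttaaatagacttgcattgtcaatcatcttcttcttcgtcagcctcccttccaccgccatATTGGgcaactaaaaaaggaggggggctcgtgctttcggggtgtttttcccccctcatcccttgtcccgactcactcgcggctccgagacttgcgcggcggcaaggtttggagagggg

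The Ccnb1 window held CCAAT at bases 169 to 173 and 201 to 205, both in the forward orientation, and 1 GC box, with no overlap among them. The Cdk1 window held 3 CCAAT boxes in the reverse orientation, of which those at bases 170 to 174 and 202 to 206 lay within 1 base of the places in Ccnb1, together with TTTGAA at bases 179 to 184 and 235 to 240 and 1 GC box. The Cdkn1b window also held 2 CCAAT boxes, at bases 103 to 107 and 183 to 187 in opposite orientations, although this gene moved the other way. At least 2 CCAAT boxes occurred in 11.2% of 33469 RefSeq windows of this length, at least 1 in 37.5%, TTTGAA in 18.3% and the GC box in 33.1%. The E2F letters TTTGGCGC (0.493% of windows) and TTTCCCGC (0.974%) were not in any of the 6 windows or in that of Cdk1. TTTGAA was not in any of the 6 windows either, and Ccnd3 held 1 further CCAAT box. Only the exact letters given were searched, so any other form of these sites would be missed. These matches describe letters and do not show binding.

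Of the Cip/Kip inhibitors, Cdkn1b and Cdkn1c were lower in CCI nerve, by 4.20-fold and 1.78-fold. Cdkn1b encodes p27, which holds cyclin E-CDK2 in check in resting cells. It was at 444, 501, 598 and 414 CPM in sham 1 to 4 and at 113, 116, 124 and 114 CPM in CCI 1 to 4. The CCI libraries lay close together, and sham 2 and 3 were above sham 1 and 4. The log2 fold change was -2.07 (SE 0.11; edgeR adjusted p = 6.36e-08), and 4.88% of tested genes had one at least as low. It was -1.88 without sham 2 and 3 and -2.24 without sham 1 and 4, both fits chosen after seeing the data. The myelin markers, which fell as well, were highest in sham 1 (105200 CPM) and lowest in sham 4 (89020 CPM) of the sham libraries. A link between these markers and the level of Cdkn1b was not tested.

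Cdkn1c, which encodes p57, was at 62.2, 80.1, 62.8 and 50.8 CPM in sham 1 to 4 and at 37.5, 39.2, 30.8 and 36.0 CPM in CCI 1 to 4. Sham 2 was the highest and sham 4 the lowest of the sham libraries, and all stood above CCI (log2 fold change -0.84, SE 0.13; edgeR adjusted p = 0.000227). With library totals only the log2 fold change was -0.61 (edgeR adjusted p = 0.00161). Sham 2 and CCI 2, the highest in Cdkn1c within their groups, were also the highest in skeletal muscle markers (638 and 2575 CPM). Without both libraries the log2 fold change was -0.75 (edgeR adjusted p = 0.000405), and the part of muscle RNA was not tested. Cdkn1b fell by more than Cdkn1c: their FPKM ratio was 5.53 to 8.42 in sham and 2.61 to 3.57 in CCI libraries (log2 difference -1.23; exact permutation p = 0.0286, adjusted p = 0.0381).

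Cdkn1a, which encodes p21, was the gene of the 10 whose sham libraries were most spread relative to their mean. It was at 20.2, 43.4, 38.5 and 17.6 CPM in sham 1 to 4 and at 42.7, 62.2, 39.4 and 41.9 CPM in CCI 1 to 4. Sham 2 and 3 lay about level with CCI 1, 3 and 4, sham 1 and 4 lay far below, and CCI 2 stood above the rest. The SD was 43.2% of the mean in sham and 22.6% in CCI. The log2 fold change was 0.64 (SE 0.32) and missed the threshold (edgeR, adjusted p = 0.111). If scaled by library totals only, it passed (log2 fold change 0.86; edgeR adjusted p = 0.0399), although its distance from the median of all genes was 0.59 under either scaling.

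The value for Cdkn1a depended on the sham libraries in the comparison. Without sham 2 its log2 fold change was 0.87 (edgeR adjusted p = 0.0399). Without sham 2 and 3, the highest sham libraries in this gene, it was 1.30 (edgeR adjusted p = 0.001). Without sham 1 and 4, the lowest ones, it was 0.18 (edgeR adjusted p = 0.432). Both of these fits were chosen after seeing the data, and leaving out such libraries moves the value in a direction known beforehand. Their p-values are therefore no evidence for or against a change. The summed level of 9 skeletal muscle markers was 2575 CPM in CCI 2 and 638 CPM in sham 2, the libraries highest in Cdkn1a within their groups, but 21.7 CPM in sham 3, 14.2 and 16.01 CPM in sham 4 and 1, and 12.2 to 500 CPM in the other CCI libraries. Without CCI 2 and sham 2 the log2 fold change was 0.70 (edgeR adjusted p = 0.0711). Relative to the other Cip/Kip genes within each library, Cdkn1a was higher in CCI. Its FPKM ratio to Cdkn1b was 0.0515 to 0.105 in sham and 0.385 to 0.651 in CCI libraries (log2 difference 2.77). Its ratio to Cdkn1c was 0.349 to 0.658 in sham and 1.22 to 1.70 in CCI libraries (log2 difference 1.54). Each had exact permutation p = 0.0286 and adjusted p = 0.0381. Both ratios include the falls of Cdkn1b (log2 fold change -2.07) and Cdkn1c (-0.84), and do not show a rise of Cdkn1a by itself. Its share of the summed Cip/Kip FPKM went from 5.90% ± 1.81 to 26.2% ± 3.96, that of Cdkn1c from 12.2% ± 1.79 to 19.0% ± 1.59, and that of Cdkn1b from 81.9% ± 2.85 to 54.8% ± 4.46, while the sum itself went from 230 ± 38.4 to 96.0 ± 6.26 (SD, n = 4).

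**Figure D4:**
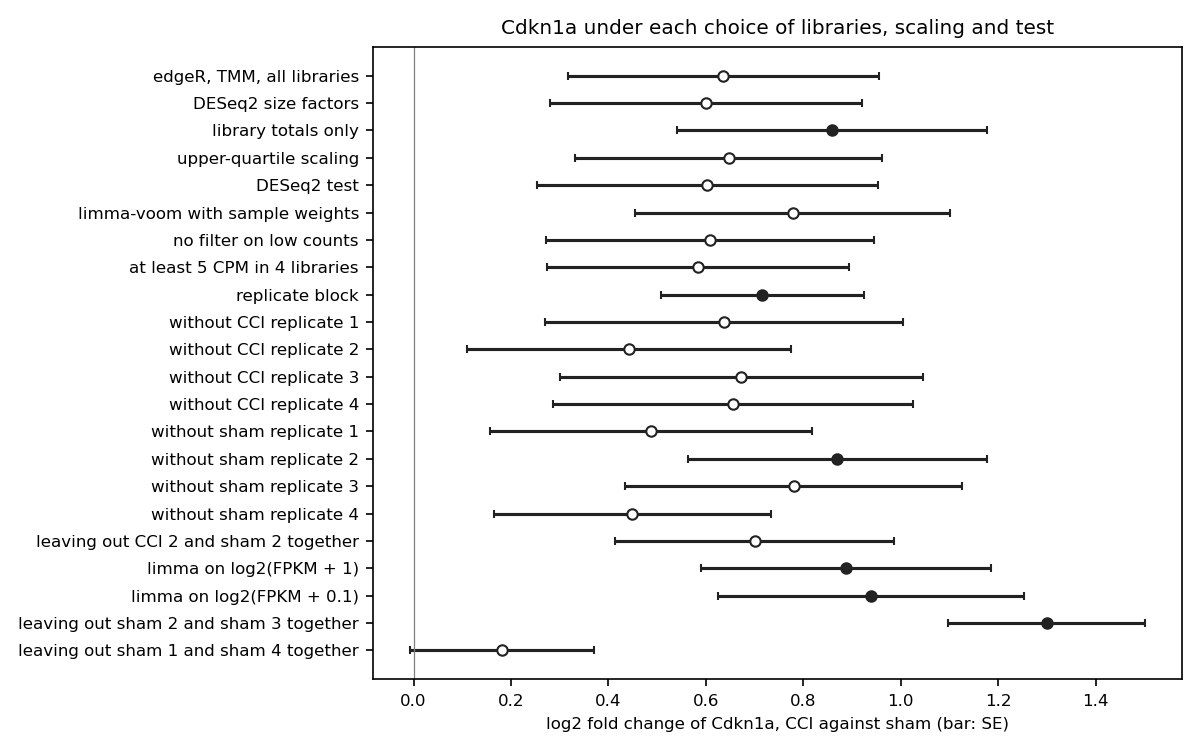
Log2 fold change of Cdkn1a, CCI against sham, with its SE (bars) under each choice of libraries, scaling and test, filled where the adjusted p was under 0.05. The value ranges from 0.18 without sham 1 and 4 to 1.30 without sham 2 and 3, both fits chosen after seeing the data. It stays above 0 in each fit shown.

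The INK4 gene Cdkn2c, which encodes p18, was 1.96-fold higher in CCI nerve. It was at 3.21, 3.37, 3.79 and 5.62 CPM in sham 1 to 4 and at 8.56, 7.46, 6.72 and 8.56 CPM in CCI 1 to 4. Sham 4 was the highest sham library and stayed below CCI 3, the lowest of its group (log2 fold change 0.97, SE 0.19; edgeR adjusted p = 0.00107). It rose by far less than Mki67: relative to Mki67 it was at 2.02 to 3.77 in sham and 0.295 to 0.438 in CCI libraries, on FPKM (log2 difference -3.00; exact permutation p = 0.0286, adjusted p = 0.0381).

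Set in order by FPKM, a level per gene length, Cdkn1b stood first in sham nerve with 188 ± 30.4, followed by Ccnd2 with 59.9 ± 6.84, Cdkn1c with 27.8 ± 5.39, Ccnd3 with 21.3 ± 1.74, Ccnd1 with 15.3 ± 2.30 and Cdkn1a with 14.0 ± 6.09 (SD, n = 4). Neighbours whose ranges overlapped were Cdkn1c and Ccnd3, and Ccnd1 and Cdkn1a. Cdkn2c followed with 2.58 ± 0.737, Ccna2 with 0.934 ± 0.260, Ccnb1 with 0.279 ± 0.0669 and Ccne1 with 0.226 ± 0.0752, the ranges of the last pair overlapping. In CCI nerve Ccnd1 stood first with 93.5 ± 25.0, ahead of Cdkn1b with 52.5 ± 3.03, Ccnd2 with 48.3 ± 3.61 and Ccnd3 with 44.4 ± 3.15. The ranges of Cdkn1b and Ccnd2 overlapped, as did those of Ccnd2 and Ccnd3. Cdkn1a with 25.4 ± 5.58, Cdkn1c with 18.2 ± 1.62 and Ccna2 with 15.8 ± 1.32 came next, of which the last pair overlapped, and then Ccnb1 with 8.10 ± 0.685, Cdkn2c with 5.90 ± 0.627 and Ccne1 with 3.25 ± 0.389. An inhibitor thus held the first place in sham nerve and a cyclin in CCI nerve. The order within a group does not depend on TMM scaling, which the FPKM lack, whereas the change of an FPKM level between groups does.

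Among 73 other genes of the pathway, grouped by role, 71 were tested, of which 38 rose and 12 fell (median log2 fold change 0.35). Together 50 of the 71 were called, a share near the 68.4% over all tested genes. More of these calls were rises than over all tested genes, of which 36.2% were higher and 32.2% lower. The counts for single lists are to be read beside these shares. With library totals only, 48 were higher and 7 lower. The CDKs and their small subunits rose in 5 of 6 cases and fell in 1, Cdk6. Cdk1, the mitotic kinase, averaged 1.05 ± 0.301 CPM in sham nerve and 30.7 ± 2.88 CPM in CCI nerve (SD, n = 4), a log2 rise of 4.86 ± 0.18 (SE) with an edgeR adjusted p of 7.83e-09, and Cks2, a CDK-binding subunit, rose from 0.489 ± 0.225 to 9.18 ± 1.38 CPM. The partners of the D-type cyclins moved by little: Cdk4 rose 1.44-fold (edgeR adjusted p = 4.24e-05) and Cdk6 fell by 0.30 on the log2 scale (edgeR adjusted p = 0.0148). Of 4 other cyclins tested, 3 rose, with Ccnb2 going from 0.710 ± 0.211 to 11.8 ± 1.01 CPM and Ccnf, the F-box cyclin, from 1.54 ± 0.202 to 20.9 ± 1.85 CPM. Ccna1 did not pass (log2 fold change 0.40, SE 0.31; edgeR adjusted p = 0.283).

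Other CDK inhibitors were measured in 3 cases. Cdkn3, a phosphatase that acts on CDKs, averaged 2.02 ± 0.601 CPM in sham nerve and 14.3 ± 0.944 CPM in CCI nerve, a log2 rise of 2.83 ± 0.19 (SE) with an edgeR adjusted p of 3.50e-07. Cdkn2a, the locus of p16 and ARF, had 6 to 21 counts in each sham and 30 to 56 in each CCI library. Its log2 fold change was 1.49 (SE 0.42, edgeR adjusted p = 0.00911). This call was lost without CCI 2 and sham 2 (log2 fold change 1.30, edgeR adjusted p = 0.0589). It was also lost without sham 2 and 3 (1.45, edgeR adjusted p = 0.0645), a fit chosen after seeing the data. Cdkn2b, which encodes p15, was at 23.0 ± 3.59 and 25.7 ± 3.91 CPM and did not pass (edgeR adjusted p = 0.325).

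The pocket proteins and E2F factors, through which cyclin-CDK activity reaches gene expression, went both ways, with 8 of 13 higher and 4 lower. Over all tested genes 36.2% were higher and 32.2% lower. Rbl1, which encodes p107, rose from 6.56 ± 1.01 to 27.8 ± 1.87 CPM (adjusted p = 7.82e-08 by edgeR), whereas Rb1 fell from 130 ± 14.8 to 81.2 ± 4.54 CPM (adjusted p = 3.17e-05 by edgeR) and Rbl2, which encodes p130, from 117 ± 19.9 to 81.5 ± 4.20 CPM (edgeR adjusted p = 0.00159). Tfdp2, a dimer partner of E2F, had the smallest p of the list and went from 105 ± 7.63 to 34.1 ± 2.50 CPM (edgeR adjusted p = 2.83e-08), while Tfdp1 rose 1.86-fold. Of the MuvB subunits and the factors that act with them, 3 of 7 rose and 2 fell, which is near the shares over all tested genes. Mybl2, which encodes B-Myb, went from 0.591 ± 0.109 to 16.4 ± 1.69 CPM, and Lin52, a MuvB subunit, from 40.7 ± 3.41 to 14.5 ± 0.905 CPM (edgeR adjusted p = 6.13e-09 and 8.68e-08).

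Of 5 kinases and phosphatases of the CDK tyrosines, 3 rose and 0 fell, among them the phosphatases Cdc25c (log2 fold change 1.86, SE 0.17; edgeR adjusted p = 3.91e-06) and Cdc25a (0.73, SE 0.10; 7.14e-05). Of 11 genes of cyclin and inhibitor turnover, 7 rose and 2 fell, led by Cdc20, an activator of the anaphase-promoting complex, from 4.19 ± 0.379 to 30.2 ± 3.69 CPM and its ubiquitin-conjugating enzyme Ube2c, from 0.288 ± 0.153 to 12.5 ± 2.10 CPM. Skp2, the F-box protein that marks p27 for degradation, rose 3.05-fold (log2 fold change 1.61, SE 0.14; edgeR adjusted p = 2.44e-06). All 3 proliferation markers rose, Top2a from 2.79 ± 1.10 to 106 ± 7.81 CPM and Pcna from 27.6 ± 2.44 to 54.7 ± 1.64 CPM beside Mki67. The subunits of the CDK-activating kinase and the cyclins and CDKs of transcription showed the smallest median of these lists (0.06), with 4 of 13 higher and 1 lower. Over all tested genes 36.2% were higher and 32.2% lower, so 4 of 13 is near the share of rises. Ccnl2, a cyclin of splicing, was 1.48-fold higher (edgeR adjusted p = 0.000848), and Ccnt2, a cyclin of transcription elongation, was lower (log2 fold change -0.37; edgeR adjusted p = 0.00333), a call that was lost with library totals only (log2 fold change -0.14; edgeR adjusted p = 0.201).

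**Figure D5:**
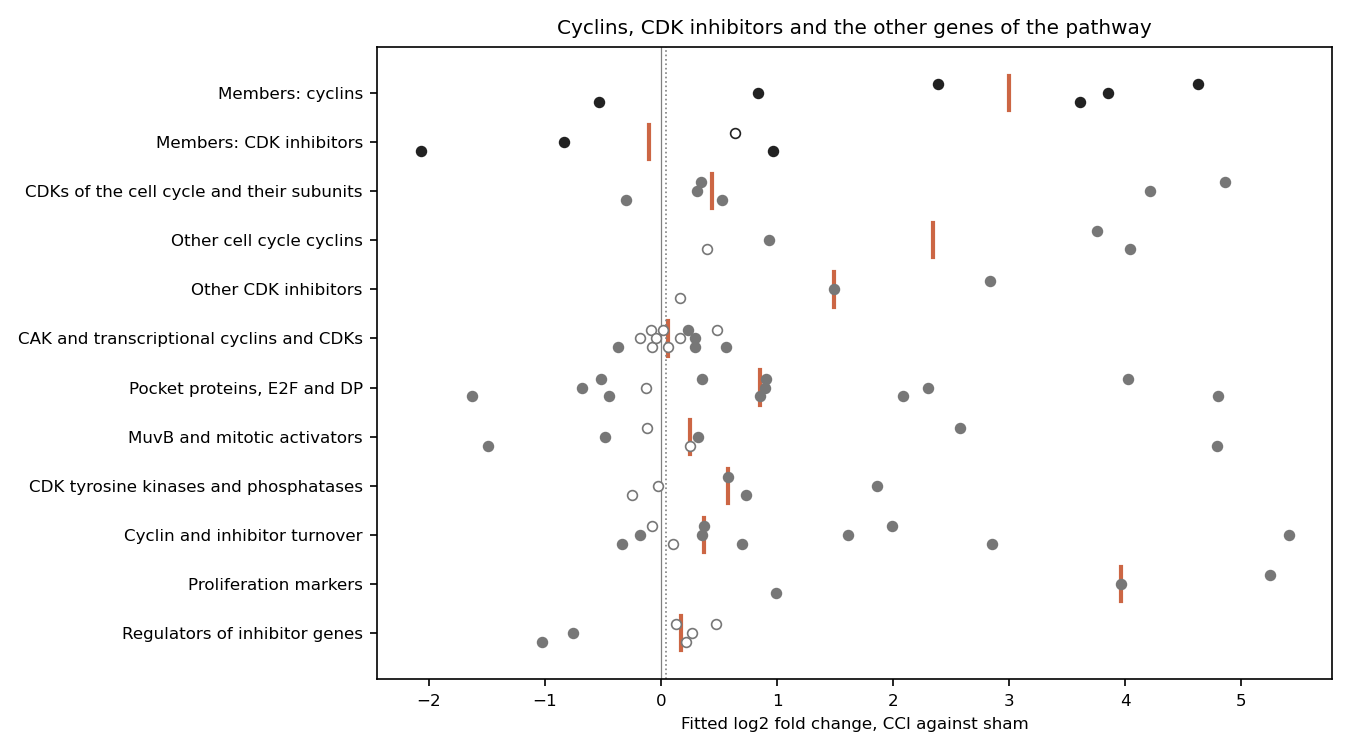
Fitted log2 fold change, CCI against sham (horizontal axis), of the 10 genes (black) and of the other tested genes of the pathway by list (grey), filled where the gene passed and open where it did not. The orange bar is the median of each row and the dotted line the median of all tested genes (0.05).

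Of 6 transcription factors known to act on the inhibitor genes, 0 rose and 2 fell: Foxo1, from 122 ± 10.8 to 60.1 ± 3.11 CPM (log2 fold change -1.02; edgeR adjusted p = 5.54e-07), and Foxo3, from 140 ± 32.2 to 82.9 ± 5.58 CPM (log2 fold change -0.76; edgeR adjusted p = 0.000995). Over all tested genes 32.2% were lower, so 2 of 6 is near that share. FOXO factors are known to activate Cdkn1b, and a link between their change and that of Cdkn1b was not tested. Myc did not pass (log2 fold change 0.48, SE 0.27; edgeR adjusted p = 0.149).

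The genes whose profile over the 8 libraries was most like that of a member were sought among 11647 genes of at least 5 CPM on average, as the smallest root-mean-square difference of centred log2 CPM. The profile of Ccnd1, Ccnb1 and Cdkn1c is mainly the step between the groups. For Ccnb1 they were the mitotic kinesin Kif23 (0.067), the membrane glycoprotein Emb (0.127) and LOC680322 (0.128), and for Ccnd1 they were the receptor Adgrg5 (0.187), the phospholipase Plcb2 (0.202) and the mitotic kinase Mastl (0.207). For Cdkn1a they were Pappa, a protease of IGF-binding proteins (0.143), the cathepsin Ctsl (0.199) and the matricellular gene Ctgf (0.225), and for Cdkn1c they were Peak1 (0.096), the smooth muscle gene Tagln (0.105) and Ankmy2 (0.111).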

How the data were processed

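Per the labels' protocols, polyA RNA of whole sciatic nerve was made into libraries with a SMARTER kit. The authors deposited raw counts per gene and FPKM values, each with a column for every library. The submitters' processing notes name build Rnor_6.0 and fastp, HISAT2, HTSeq, DESeq2 and R 3.2.0. The sources used here do not state the annotation or the strand setting. The deposited FPKM were checked to be counts over a fixed length per gene and over the library total, for 13515 of 13515 genes with at least 20 counts in every library (tolerance 0.001), so they carry no correction for library makeup.

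The test was edgeR 4.0.16's quasi-likelihood F test (R 4.3.3, robust fit) on all 8 libraries, without covariates, after filterByExpr and TMM scaling. Each SE is the fold change over the root of its F statistic, an approximation. Intervals and floors cover counting error only. The same fit was tested on simulated data (15395 genes tested), where it recovered 43.3% of 67 genes shifted 1.5-fold, 67.2% of 67 at 2-fold and 93.9% of 66 at 4-fold and made 6 false calls. The simulation changed 200 genes, far fewer than changed in the nerves.

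The members, lists and tests were chosen with earlier results of these data known. Named besides the members are the 2 genes with the smallest p of each list and the nearest profiles of 4 members; others were chosen after their values were seen (Cdk4, Cdk6, Ccna1, Cdkn2b, Rb1, Rbl2, Tfdp1, Skp2, Pcna and Myc). Of the listed genes, Cdkn2d was not matched by name and Ccnb3 did not pass the filter. A further list of related genes is not reported here. Alternatives were other scalings, filters and tests (DESeq2 1.42.0, limma 3.58.1 on voom values and on log2(FPKM + 1) or log2(FPKM + 0.1)), left-out libraries and a replicate block. No libraries were merged, since chi-square per degree of freedom was 28.7 to 78.3 within groups.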

Additional observations from a re-analysis of the deposited data

Results flagged for a closer look

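Among 44 groups of 4 library values (10 genes and 12 ratios in 2 groups each), 2 held a library far from the other 3, where chance gives about 1 in 20. In Cdkn1a the CCI libraries had 1 value far above the rest, CCI 2 with 62.2 CPM against 39.4 to 42.7 CPM, a gap of 0.856 of the group's range. CCI 2 also had the highest summed level of skeletal muscle markers (2575 CPM), and the part of muscle RNA in this value was not tested. Without CCI 2 the log2 fold change of Cdkn1a was 0.44 (edgeR adjusted p = 0.280). In the log2 ratio of Ccnd1 to Ccnd2 the sham libraries were nearly identical with the exception of sham 2, which was at -2.09 where the highest was -1.94, a gap of 0.968 of a narrow range. Both lay far from the CCI libraries, which were at 0.42 to 1.26.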

How the results depend on the processing

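Cdkn1a changed sides of the threshold. Its log2 fold change of 0.64 (edgeR adjusted p = 0.111) passed at 0.86 with library totals only and at 0.72 with the replicate block. It also passed at 0.89 and 0.94 with limma on log2(FPKM + 1) and log2(FPKM + 0.1). The pass at 1.30 without sham 2 and 3 came from a fit chosen after seeing the data, which left out the highest sham libraries. With 1 library left out the log2 fold change ranged from 0.44 to 0.87, passing only without sham 2. The cause was not tested. Against a minimum log2 fold change of 1, 3348 genes were called in place of 10788, 5 members in place of 9, 1 lower member in place of 3 and 20 other pathway genes in place of 50, and Ccnd2 (-0.54), Ccnd3 (0.83), Cdkn1c (-0.84) and Cdkn2c (0.97) were no longer called, as a stricter null requires. No member changed direction in any fit, and the 9 called members were called in every other fit. With library totals only, 66.9% of all calls were higher in CCI, compared with 52.9%, and 66.8% with limma on log2(FPKM + 1).

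Same-numbered libraries of the groups correlated in their deviations from the group means at 0.121, 0.293, -0.0241 and 0.0271, so the numbers were not taken as pairs; the replicate block called 10505 genes, 10 members (the call of Cdkn1a was the 1 gained) and 51 other pathway genes. Ratios were past the threshold in 9 of 12 cases with FPKM and with counts plus 0.5. With 1 library left out, the exact test on the absolute difference (smallest p 0.0286) passed 8 to 9 ratios, Ccnb1/Mki67 being lost without any 1 CCI library, whereas doubling the smaller tail cannot go below 0.0571. Without CCI 2 and sham 2 (smallest p 0.1) and with the block (0.125) the exact test cannot reach 0.05, and values only were computed. Depth limits mainly Ccne1 and Ccnb1 in sham, with 13 to 58 counts a library.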
